A study of Glycine max with 12 samples.

Results

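The genes described here are 5 soybean genes of isoflavone synthesis, out of 52872 genes in the deposited table. They were chosen by name and identifier, by a rule that uses no measured value, though earlier results of these data were known. They are the chalcone synthases CHS7 (Glyma.01G228700) and CHS8 (Glyma.11G011500), the chalcone isomerase CHI1A (Glyma.20G241500) and the isoflavone synthases IFS1 (Glyma.07G202300) and IFS2 (Glyma.13G173500). All 5 had counts in each of the 12 libraries, and all 5 passed the filter on low counts. Messenger RNA was measured in developing seed of genotype 93Y21, collected 35 days after flowering, in 3 libraries of transgenic event e15, 3 of transgenic event e19 and 6 of seeds called nulls. Both events carry a construct driven by the GmUBQ promoter, and the study is about GmCGS2, which encodes a cystathionine gamma-synthase (an enzyme of methionine synthesis) and is expressed ectopically in a form with a deletion. Titles of all 12 libraries, nulls included, begin with UBQ. They mark the events HOM and the nulls NULL, under different line codes, and the relation of the nulls to the events is not stated. Replicates are numbered, but whether each is its own plant is not said. The p-values therefore set differences between groups against the spread among these libraries, and that spread may be technical.

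Isoflavones such as genistein and daidzein are flavonoids made mainly by legumes, and soybean seed stores them as glucosides and malonylglucosides. They act in the plant in defence against pathogens and in signalling to nitrogen-fixing bacteria. Chalcone synthase joins p-coumaroyl-CoA with malonyl-CoA to make a chalcone, chalcone isomerase closes the chalcone to a flavanone, and isoflavone synthase, a cytochrome P450 of the endoplasmic reticulum, moves the aryl ring of the flavanone and so commits it to the isoflavone branch. Soybean has several copies of each, and CHS7 and CHS8 are the chalcone synthase copies most often tied to isoflavones in seed.

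No member passed the test in either event against all 6 nulls. That fit counts the difference between null replicates 1 to 3 and 4 to 6 as spread. The levels of the isoflavone synthases separated the controls from each other. With library sizes scaled as described below, null replicates 1 to 3 had the 3 lowest levels of IFS1 and of IFS2 among all 12 libraries. Null replicates 4 to 6, e15 and e19 overlapped each other. IFS1 averaged 48.6 ± 3.20 CPM in nulls 4 to 6 against 37.2 ± 2.95 CPM in nulls 1 to 3 (SD, n = 3 each), 1.31-fold. Such a difference was common among all genes: 9.59% of tested genes were called between these sets, 14.7% had all of nulls 4 to 6 above nulls 1 to 3, and 4.67% had the other 9 libraries all above them. With this scaling CHI1A, CHS7 and CHS8 overlapped between all groups. Relative to library totals alone, nulls 1 to 3 held the 3 highest levels of CHI1A. Null 1 then lay above null 5 in IFS1, and null 2 above null 5 in IFS2.

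Total counts ranged from 21988821 to 22849075 in e15, from 19207771 to 21900491 in e19 and from 21357512 to 23276877 in the nulls. Across the whole table the nulls formed 2 sets that follow the replicate numbers: the first principal component of log2 levels, with 25.3% of the variance, had scores from 17.4 to 19.4 for nulls 4 to 6 and from -43.6 to -39.7 for nulls 1 to 3. Replicate 3 of e19 lay at -11.2 on that component, against 23.8 and 20.2 for the other e19 libraries. The labels describe both sets of nulls in the same words and name no batch, so what distinguishes the sets cannot be told, and the main results below are given against all nulls and against each set. Levels are in CPM, counts of a gene relative to a fixed total of counts per library, with library sizes scaled by TMM, a method that equalises the bulk of genes between libraries. The scaling factors were 1.10 to 1.12 in nulls 1 to 3 and 0.907 to 1.02 in the other 9 libraries. Identifiers could not be tied to marker genes of seed or of other tissues, so the tissue label was not checked here, and in whole seed fewer cells that express a gene and less RNA per cell cannot be told apart.

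In the RefSeq annotation of the assembly Glycine_max_v4.0, matched by symbol and on the same chromosome as the identifier for 5 of 5 members, CHS7 lies on chromosome 1 at 56759007-56760978, CHS8 on chromosome 11 at 797318-799453 and CHI1A on chromosome 20 at 47198220-47200658. IFS1 lies on chromosome 7 at 37488812-37491179 and IFS2 on chromosome 13 at 28182456-28184534. RefSeq lists IFS2 as a synonym of IFS1 and IFS1 as a synonym of IFS2, so the names are used here as paired with the identifiers above. CHI1A is followed on its chromosome by CHI1B1 and CHI2-A, which carry chalcone isomerase symbols too.

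Chalcone synthase provides the carbon skeleton of all flavonoids. CHS7 was at 9.31, 8.34 and 11.3 CPM in e15 and at 7.24, 12.004 and 8.21 CPM in e19, against 11.3, 11.2, 7.02, 10.3, 8.52 and 7.66 CPM in nulls 1 to 6. The groups overlapped throughout, and the lowest and the third highest level of all libraries were both found within nulls 1 to 3. Its log2 change was 0.05 ± 0.19 in e15 (SE, n = 3 against 6, adjusted p = 0.966) and -0.03 ± 0.19 in e19 (adjusted p = 0.984).

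CHS8 had the fewest counts of the members, with 32.2 to 73.0 counts per library. It was at 1.83, 2.19 and 2.48 CPM in e15 and at 1.81, 2.20 and 1.64 CPM in e19, against 2.69, 2.93, 1.78, 2.54, 1.84 and 1.74 CPM in nulls 1 to 6. Its mean was lowest in e19 and highest in nulls 1 to 3, with overlap between all groups. In e15 the log2 change was -0.06, with a 95% interval of -0.47 to 0.35 (adjusted p = 0.960). In e19 it was -0.27, with an interval of -0.69 to 0.16 (adjusted p = 0.811). Counting alone would give a spread of 14.5% of the mean over the 12 libraries, against 20.1% observed. Against nulls 4 to 6 its change was 0.09 in e15 and -0.11 in e19, and against nulls 1 to 3 it was -0.19 and -0.40, none of them called.

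Counts of CHS7 and CHS8 were not whole in any library, yet the counts of this pair added up to a whole number in 12 of 12 libraries (tolerance 0.0025). Of 28020 genes with counts that were not whole, CHS8 was the 1 that completed CHS7 in all 12, and the next best did so in 3. A counting program can divide reads that fit near-identical copies, so the separate levels of CHS7 and CHS8 are uncertain, whereas no division between them changes their sum. The sum was 11.8 ± 1.75 CPM in e15 (SD, n = 3) and 11.03 ± 2.77 CPM in e19 (n = 3), against 11.6 ± 2.35 CPM in the nulls (n = 6). Its log2 change was 0.03 in e15, with a 95% interval of -0.38 to 0.44, and -0.07 in e19, with an interval of -0.50 to 0.35 (adjusted p = 0.981 and 0.955). The sign turned with the control: against nulls 4 to 6 the sum was at 0.13 in e15 and 0.02 in e19, and against nulls 1 to 3 at -0.05 and -0.16, none of them called. The share of CHS8 in the pair averaged 18.4 ± 2.18% for e15 and 17.4 ± 2.35% for e19, against 19.4 ± 1.10% for the nulls. Set against the nulls, this share gave two-sided exact permutation p-values of 0.405 (e15) and 0.143 (e19), or 0.486 and 0.429 when adjusted over 6 tests of shares. The differences of this share were -0.32 (e15) and -1.33 (e19) percentage points from nulls 4 to 6, and -1.69 and -2.70 points from nulls 1 to 3.

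CHI1A, which makes the flavanone that isoflavone synthase uses, was at 15.6, 14.2 and 15.3 CPM in e15 and at 16.4, 16.1 and 14.1 CPM in e19, against 16.8, 15.4, 14.7, 15.8, 14.7 and 15.3 CPM in nulls 1 to 6. Its counts were whole in all 12 libraries, and its levels stayed within 14.1 to 16.8 CPM. With TMM scaling their SD over the 12 libraries was 5.49% of the mean, where counting alone would give 5.44%. The log2 change was -0.04 ± 0.07 in e15 (SE, 95% interval -0.19 to 0.11) and 0.01 ± 0.07 in e19 (-0.15 to 0.16), with adjusted p = 0.919 and 0.994. By library totals alone, nulls 1 to 3 held the 3 highest levels of CHI1A. Its log2 change was then -0.13 in e15 and -0.12 in e19, neither of them called.

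**Figure D1:**
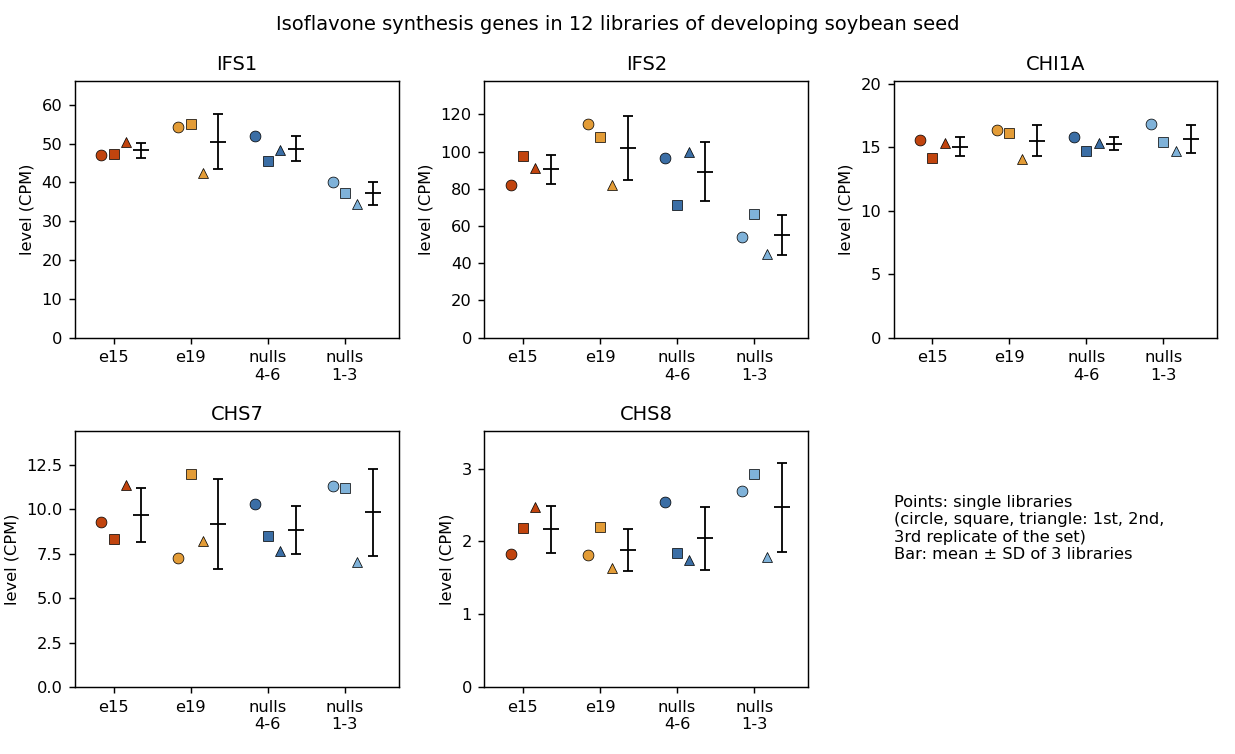
Level of each gene in CPM (vertical axes, from 0) in e15, e19, nulls 4 to 6 and nulls 1 to 3, with 1 point per library and the mean ± SD of each set of 3. Nulls 1 to 3 lie lowest for IFS1 and IFS2, CHI1A stays within 14.1 to 16.8 CPM, and the sets overlap for CHS7 and CHS8.

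IFS1 was at 46.9, 47.4 and 50.4 CPM in e15 and at 54.2, 55.1 and 42.3 CPM in e19, against 51.9, 45.6 and 48.4 CPM in nulls 4 to 6 and, in nulls 1 to 3, 40.2, 37.1 and 34.3 CPM. With TMM scaling, all 6 event libraries and all 3 of nulls 4 to 6 lay above the highest of nulls 1 to 3. The event libraries overlapped nulls 4 to 6. Of the 32115 tested genes, 12.9% had all of e15 above nulls 1 to 3 and 11.8% all of e19. The lowest event library was e19 replicate 3, the library that also lay apart from its group on the first component. Against all nulls the log2 change was 0.17 ± 0.12 in e15 (SE, adjusted p = 0.753) and 0.24 ± 0.12 in e19 (adjusted p = 0.729), 1.12-fold and 1.18-fold. Scaled by library totals it was 0.09 and 0.12, and null 1 then lay above null 5, e15 replicate 1 and e19 replicate 3. In a fit with the nulls as 2 sets, the change against nulls 1 to 3 was 0.37 ± 0.08 in e15 (adjusted p = 0.00437) and 0.44 ± 0.08 in e19 (adjusted p = 0.00146), both past the threshold. Against nulls 4 to 6 it was -0.01 in e15 and 0.05 in e19, with 95% intervals of -0.18 to 0.16 and of -0.12 to 0.23.

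IFS2 was at 82.1, 97.7 and 91.3 CPM in e15 and at 114.9, 108.0 and 82.2 CPM in e19, against 96.5, 71.3 and 99.97 CPM in nulls 4 to 6 and, in nulls 1 to 3, 53.9, 66.4 and 45.2 CPM. As for IFS1, nulls 1 to 3 were the 3 lowest libraries with TMM scaling, and the events overlapped nulls 4 to 6. By library totals, IFS2 of null 2 lay above that of null 5. Over all 12 libraries its SD was 25.5% of its mean, the widest of the 5 members, where counting alone would give 2.34%. Against all nulls the log2 change was 0.33 ± 0.25 in e15 (SE, adjusted p = 0.773) and 0.50 ± 0.25 in e19 (adjusted p = 0.728), 1.25-fold and 1.41-fold. Against nulls 1 to 3 it was 0.71 ± 0.19 in e15 (adjusted p = 0.0559) and 0.88 ± 0.19 in e19 (adjusted p = 0.0267), and against nulls 4 to 6 it was 0.02 ± 0.19 and 0.19 ± 0.19.

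The counts of IFS2 are tied to those of another row of the table. Counts of IFS2 were whole in 0 of 12 libraries, those of IFS1 in 2 and their sum in 0. With Glyma.13G173401 added, one of the 10 tested genes nearest to IFS2 by identifier, the sum was whole in 12 of 12 libraries. Among 28019 genes with counts that were not whole, the next best did so in 2. The sources used here give Glyma.13G173401 no name, and it was found after the values had been seen. It was at 23.6, 3.52 and 5.63 CPM in e15 and at 12.2, 4.18 and 6.77 CPM in e19, against 17.9, 29.7 and 9.80 CPM in nulls 4 to 6 and, in nulls 1 to 3, 19.1, 4.27 and 17.3 CPM. In e15, in nulls 4 to 6 and in nulls 1 to 3 the library with the least of this row had the most IFS2, and in e15 and nulls 4 to 6 the library with the most of it (e15 replicate 1 and null 5) had the least IFS2. This was not so in e19, where replicate 1 had the most of both.

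Summed with Glyma.13G173401, IFS2 was at 105.8, 101.3 and 97.0 CPM in e15 and at 127.1, 112.2 and 89.0 CPM in e19, against 114.3, 101.0 and 109.8 CPM in nulls 4 to 6 and, in nulls 1 to 3, 73.0, 70.6 and 62.5 CPM. The SD within nulls 4 to 6 was 6.26% of the mean for this sum and 17.5% for IFS2 alone, and within nulls 1 to 3 it was 8.05% and 19.3%. Within e15 it was 4.33% and 8.69%. Within e19 the sum varied no less, with 17.5% against 16.9% for IFS2 alone. Whether messages of IFS2 were counted under Glyma.13G173401 or the reverse cannot be told apart from the counts, and the separate levels of IFS1, IFS2 and this row are uncertain.

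The sum of IFS1, IFS2 and Glyma.13G173401 is the same however reads were divided among the 3 rows. It was 150 ± 2.78 CPM in e15 (SD, n = 3) and 160 ± 25.7 CPM in e19 (n = 3), against 157 ± 9.92 CPM in nulls 4 to 6 (n = 3) and, in nulls 1 to 3, 106 ± 8.37 CPM (n = 3). Its log2 change against all nulls was 0.19 ± 0.18 in e15 (SE, adjusted p = 0.825) and 0.28 ± 0.18 in e19 (adjusted p = 0.777). It was 0.11 in e15 without null 3 and 0.18 in e19 without e19 replicate 1, and 0.11 and 0.17 with library totals in place of TMM. Against nulls 1 to 3 it was 0.50 ± 0.09 in e15 (adjusted p = 0.00056) and 0.59 ± 0.09 in e19 (adjusted p = 0.000158). Against nulls 4 to 6 it was -0.07 in e15, with a 95% interval of -0.25 to 0.11, and 0.03 in e19, with an interval of -0.16 to 0.21. With the nulls as 2 sets and the mean of the sets as control, the mean of both events was higher by 0.26 ± 0.06 (edgeR, adjusted p = 0.0227). That SE takes in only the spread within sets and leaves out the difference between the null sets. With all nulls as 1 group the change was 0.23 ± 0.15 (edgeR, adjusted p = 0.676). The share of all tested genes called with 2 sets is not given here. Against nulls 4 to 6 alone the mean of both events was at -0.02 ± 0.08.

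**Figure D2:**
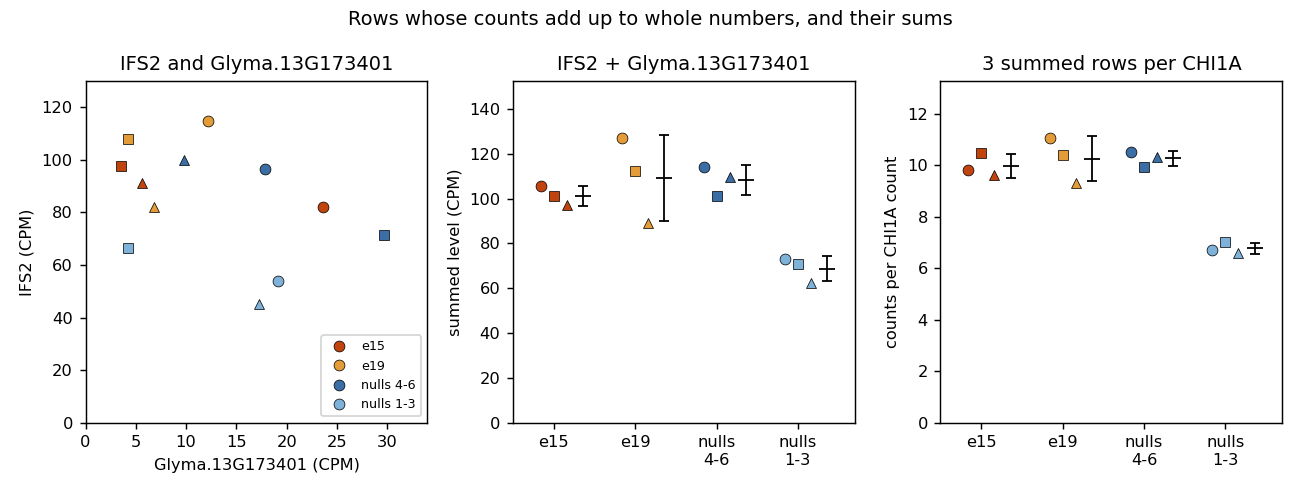
Left, IFS2 against Glyma.13G173401 in each library (CPM on both axes). Middle, their summed level in CPM, and right, counts of IFS1, IFS2 and Glyma.13G173401 together per CHI1A count, by set with 1 point per library and mean ± SD. In both sums nulls 1 to 3 lie below all other libraries.

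A ratio to CHI1A within the same library needs no scaling between libraries. Counts of IFS1, IFS2 and Glyma.13G173401 together were 9.61 to 10.5 per CHI1A count in e15 and 9.32 to 11.1 in e19, against 9.95 to 10.5 in nulls 4 to 6 and 6.58 to 7.01 in nulls 1 to 3. Nulls 1 to 3 were again apart from the other 9 libraries, and e19 replicate 3 gave the lowest ratio of those 9. The same ratio for CHS7 and CHS8 together ran from 0.716 to 0.901 in e15 and from 0.552 to 0.882 in e19, against 0.598 to 0.919 in the nulls, with no set apart. A ratio shows that the isoflavone synthases and CHI1A differed unequally between the sets, not which of them differed. The share of IFS2 in IFS1 and IFS2 averaged 65.1 ± 1.94% for e15 and 66.7 ± 1.07% for e19, against 61.9 ± 4.30% for the nulls (exact two-sided permutation p = 0.357 and 0.0952, adjusted p = 0.486 and 0.429 over 6 tests). The nulls pool 64.5 ± 3.21% in nulls 4 to 6 with 59.4 ± 4.08% in nulls 1 to 3. The share was higher by 0.68 points in e15 and 2.28 points in e19 than in nulls 4 to 6, and by 5.74 and 7.33 points than in nulls 1 to 3 (exact permutation, adjusted p of 1 and of 0.267 for both events), where 3 libraries against 3 cannot reach 0.05. The part of Glyma.13G173401 in this share was not tested.

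**Figure D3:**
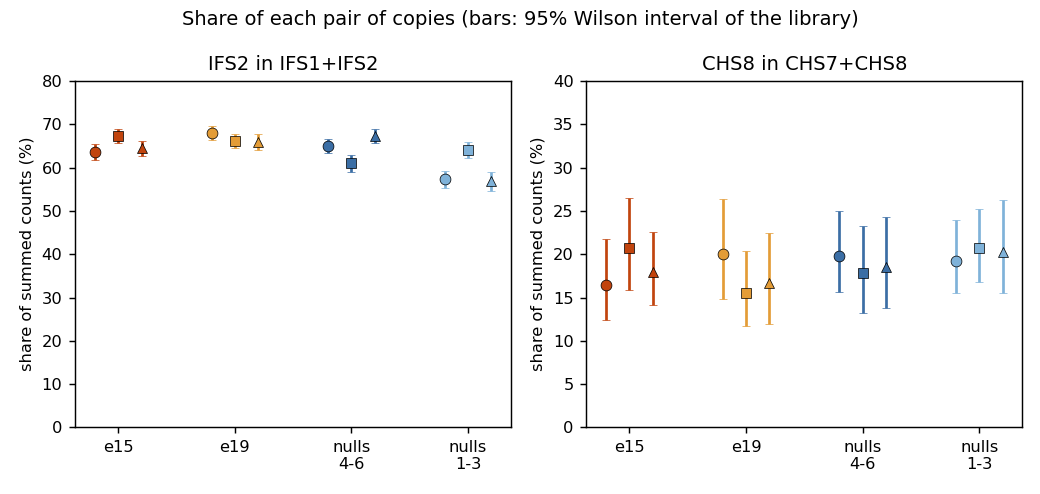
Share of IFS2 in the counts of IFS1 and IFS2 (left) and of CHS8 in the counts of CHS7 and CHS8 (right), in percent, by set, with 1 point per library and bars for its 95% Wilson interval. The intervals cover counting error only, and those of CHS8 overlap between all libraries.

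Of the 5 members, 0 were called in e15 against all nulls, where 0.754% of all tested genes were called, and 0 in e19, where 0.0747% were. By edgeR's quasi-likelihood test, 0 members had an unadjusted p under 0.05 in either comparison, against 9.11% and 7.04% of all tested genes, and DESeq2 called 0 as well. Nor did any member's event libraries all lie on one side of the nulls, as 5.16% of tested genes did for e15 and 3.17% for e19. Higher than the nulls were 3 members and lower were 2 in each event. The median log2 change of the members was 0.05 in e15 and 0.01 in e19, and that of all tested genes was -0.00 and -0.01. Both comparisons use the same 6 nulls. For the mean of both events against the nulls 0 members were called (background 0.255%), and IFS1 and IFS2 had log2 changes of 0.20 ± 0.10 and 0.41 ± 0.20 (SE, adjusted p = 0.571 and 0.588). With the nulls as 2 subgroups in edgeR, these changes were 0.21 ± 0.06 and 0.45 ± 0.13 (adjusted p = 0.0529 and 0.164). These SEs leave out the difference between the null sets. Again 0 members were called.

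Against nulls 1 to 3 alone, 1 member was called in e15 (IFS1), where 8.33% of tested genes were called, and 2 in e19 (IFS1 and IFS2), where 7.23% were. Against nulls 4 to 6 alone, 0 members were called in e15 (background 1.17%) and 0 in e19 (0.252%). With TMM scaling, CHI1A kept within -0.06 to 0.02 on the log2 scale against either set, and CHS7 within -0.11 to 0.13. None of these changes passed the threshold.

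**Figure D4:**
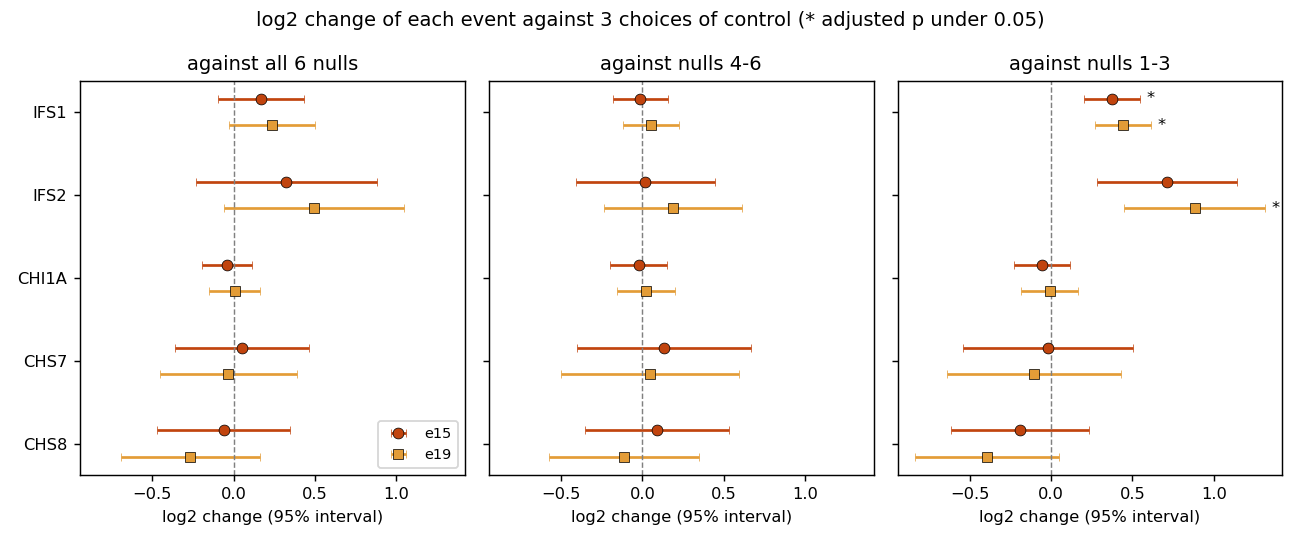
log2 change of each gene in e15 and e19 with its 95% interval (horizontal axes), against all 6 nulls, nulls 4 to 6 and nulls 1 to 3, with a star at an adjusted p under 0.05. Only IFS1 in both events and IFS2 in e19 carry a star, all against nulls 1 to 3.

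Set against each other, e15 and e19 were called different in 0 of 5 members, where 0.299% of tested genes were called. By edgeR 0 members had an unadjusted p under 0.05 there, against 6.65% of tested genes, and DESeq2 called 0. No member's libraries separated the events, as those of 12.1% of tested genes did. The log2 difference, e15 over e19, was -0.07 for IFS1, with a 95% interval of -0.37 to 0.24, and -0.17 for IFS2, with an interval of -0.82 to 0.48. For CHI1A it was -0.05, with an interval of -0.23 to 0.13. It was 0.08 for CHS7 and 0.20 for CHS8. The interval of CHS7 reached from -0.40 to 0.57 and that of CHS8 from -0.29 to 0.70, and the events are not shown to be alike for any member. These intervals come from the fit with 3 groups, whose spread takes in the split of the nulls. With the nulls as 2 subgroups, the SE fell from 0.14 to 0.08 for IFS1 and from 0.29 to 0.19 for IFS2. For CHS8 the SE fell from 0.237 to 0.224, and it rose for CHS7 from 0.223 to 0.241 and for CHI1A from 0.0859 to 0.0866. In that fit 0 members were called too, and the share of all tested genes called is not given.

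Between nulls 4 to 6 and nulls 1 to 3, IFS1 was higher by 0.39 ± 0.08 on the log2 scale (SE, adjusted p = 0.00315), 1.31-fold, and was the 1 member called, where 9.59% of tested genes were. DESeq2, and edgeR without its robust setting, called 2, IFS2 being the other. The share of all tested genes called by those alternatives is not given here, so the count cannot be set against it. IFS2 was higher by 0.69 ± 0.19 (adjusted p = 0.0560), 1.62-fold, and missed the threshold. With TMM scaling, nulls 4 to 6 all lay above nulls 1 to 3 in both genes, as in 14.7% of tested genes. The 3-row sum was higher by 0.57 ± 0.09 (adjusted p = 0.00016), 1.48-fold. CHS7, CHS8 and CHI1A had differences of -0.16, -0.28 and -0.03 (adjusted p = 0.775, 0.473 and 0.871). These sets were noticed in earlier results of the same data, so the p-values describe the sets and are no independent evidence of them. Scaling by library totals without TMM put the median of all tested genes in this comparison at -0.20 rather than 0.00. The member called was then IFS2, at 0.50 (adjusted p = 0.0499), and not IFS1, at 0.19 (adjusted p = 0.0874). For library totals, too, the share of all tested genes called is not given. With that scaling null 5 lay below null 1 for IFS1 and below null 2 for IFS2. CHI1A was at -0.23 (adjusted p = 0.0566), and the 3-row sum stayed called at 0.37 (adjusted p = 0.00124).

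By level, IFS1 stood in the order e19, nulls 4 to 6, e15 and nulls 1 to 3, with means of 50.5, 48.6, 48.2 and 37.2 CPM. IFS2 stood in the order e19, e15, nulls 4 to 6 and nulls 1 to 3, with means of 101.7, 90.4, 89.2 and 55.2 CPM. In both, the ranges of the first 3 overlapped. CHS7 had its highest mean in nulls 1 to 3 (9.83 CPM), followed by e15 (9.66), e19 (9.15) and nulls 4 to 6 (8.82), and CHS8 followed the order nulls 1 to 3 (2.47 CPM), e15 (2.17), nulls 4 to 6 (2.04) and e19 (1.88), with SDs of 0.285 to 2.52 CPM over both genes. CHI1A means ran from 15.02 CPM in e15 to 15.6 CPM in nulls 1 to 3. Ranges of neighbours in these 3 orders overlapped.

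Profiles over the 12 libraries were compared by the root mean square difference of log2 CPM after centring each gene, among 17356 other genes, which is a description of libraries that fall into sets. CHS7 and CHS8 were close to each other at 0.16: CHS8 ranked 3 among the genes most like CHS7, and CHS7 ranked 4 for CHS8. The part of their joint whole counts in this likeness was not tested. The isoflavone synthases were at 0.22 from each other, IFS1 ranking 77 among the genes most like IFS2 and IFS2 ranking 7617 for IFS1, whose own swings are smaller (0.20 against 0.39). CHI1A ranked 7446 for IFS2 and 1063 for CHS7.

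The gene most like IFS2 was Glyma.19G260500 at a difference of 0.15, which averaged 36.02 ± 1.28 CPM in e15, 40.1 ± 8.21 CPM in e19, 37.6 ± 2.71 CPM in nulls 4 to 6 and, in nulls 1 to 3, 22.5 ± 1.81 CPM (SD, n = 3 each). The next was Glyma.04G062000, also at 0.15, with 14.6, 14.3, 14.3 and 8.47 CPM in the same sets of 3 (SD 0.880 to 1.47). Most like IFS1 were Glyma.12G135100 and Glyma.09G160500, both at 0.06, and Glyma.09G160500 averaged 1230 CPM in e15, 1319 CPM in e19, 1252 CPM in nulls 4 to 6 and, in nulls 1 to 3, 983 CPM (SD 13.7 to 125). All 4 shared the low place of nulls 1 to 3, which the measure favours. For CHS7 the nearest were Glyma.20G165700 (0.12) and Glyma.01G216400 (0.15), for CHS8 Glyma.06G179500 (0.12) and Glyma.20G125200 (0.14), and for CHI1A Glyma.17G237000 (0.04) and Glyma.17G062600 (0.05).

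Of the 10 tested genes nearest to each member by identifier, 5 on either side, 0 were called in e15 or e19 against the nulls or between the events, for any of the 5 members. Between nulls 4 to 6 and nulls 1 to 3, where 9.59% of all tested genes were called, 2 of the 10 near IFS1 were, Glyma.07G201800 (-0.70 ± 0.13, SE, adjusted p = 0.000397) and Glyma.07G202500 (-0.53 ± 0.15, adjusted p = 0.0274), both lower where IFS1 was higher. Near CHI1A, Glyma.20G241600 was lower in nulls 4 to 6 by 0.35 ± 0.10 (adjusted p = 0.0180). Near IFS2, CHS7 and CHS8 0 were called.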

How the data were processed

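The authors deposited 1 table of estimated counts of reads per gene, with a column per library. Per the labels' protocols, polyadenylated RNA was made into stranded libraries and sequenced as single reads of 100 bp. The sources used here do not give the aligner, the counter or the use of strand. The deposited table carries the tag W82a4v1. Of the tested genes, 79.9% had at least 1 value that was no whole number (tolerance 5e-04). Columns matched the library names in the labels, and 0 columns were left out.

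Counts were rounded, filtered with filterByExpr (32115 of 44786 genes with any count were tested), scaled by TMM and tested with edgeR 4.0.16 (robust quasi-likelihood, R 4.3.3) in 1 fit of all 12 libraries with a mean for each of 3 groups. The comparison of the null sets, and of each event with a set, used a fit with 4 groups. Calls were made at a Benjamini-Hochberg adjusted p of 0.05 over all tested genes. SEs come from dividing the log2 fold change by the square root of F. Wilson intervals were at 95%, and cover counting error only. Permutation tests of shares used scipy 1.17.1, where 3 against 3 libraries cannot go below 0.10. The fit was tested on simulated data with no split of the nulls and with changes larger than those of the members. That test therefore does not show how the fit handles these nulls. No replicate pair was alike within counting noise: chi-square per gene between replicates was 1.81 at its lowest.

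The genes named in the text are the members, called neighbours, and for each member the 2 genes of at least 5 CPM with the most similar profile (log2 CPM with a prior count of 2). The members and lists were chosen with earlier results of these data known. Other pathway genes, tissue markers and the targeted gene were not analysed here, because 0 of 59048 RefSeq rows carry a deposited identifier. No sequence was used here. Alternatives were DESeq2 1.42.0, other scalings, no filter, each null set as control, a replicate block and leaving out each library. The sum with Glyma.13G173401 and the ratio to CHI1A were added after the values were seen.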

Additional observations from a re-analysis of the deposited data

How the results depend on the processing

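Of 827 alternative values over 51 results, 728 kept their direction and their side of the threshold. A sign turned in 57, of which 0 were called, 29 values gained a call, 3 lost one and 10 counts moved. CHS8, at 32.2 counts in its lowest library, and the 3 libraries per event limit the precision.

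With library totals in place of TMM, which put the median of all genes at -0.10 (e15), -0.13 (e19) and -0.12 (mean of events), the log2 change of CHS7 was -0.039 in e15 and -0.10 for the mean of events, that of CHI1A -0.12 in e19, and that of CHS7 and CHS8 summed -0.061 in e15. Between the null sets, DESeq2 and edgeR without the robust setting called 2 members each, with no share of all tested genes given beside them.

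With nulls 1 to 3 as the control, 1 member was called in e15 (8.33% of tested genes) and 2 in e19 (7.23%). For the mean of events 2 were called, and the share of all tested genes is not given there. IFS1 and IFS2 summed were then at 0.59, 0.72 and 0.65, and with Glyma.13G173401 at 0.50, 0.59 and 0.55, all called. CHS7 was at -0.020 in e15 and -0.064 for the mean, CHI1A at -0.011 in e19, and CHS7 and CHS8 summed at -0.054 in e15. With nulls 4 to 6 as the control, IFS1 was at -0.012 and CHS8 at 0.092 in e15, CHS7 at 0.049 in e19, CHS7 and CHS8 summed at 0.020 in e19 and 0.073 for the mean, and the 3-row sum at -0.070 in e15 and -0.022 for the mean. With the nulls as 2 subgroups, in a fit whose spread leaves out the difference between them, the 3-row sum was called for the mean of events at 0.26.

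Samples with the same number did not deviate together (correlations of -0.05 to 0.07 over 9 pairs). A replicate block over numbers 1 to 3 uses nulls 1 to 3 alone. With it 2 members were called in e15, 2 in e19 and 2 for the mean, but the share of all tested genes called with it is not given here. Against the same nulls without the block, 8.33% of tested genes were called in e15 and 7.23% in e19. With the block, IFS1 and IFS2 summed were at 0.60, 0.72 and 0.66, and the 3-row sum at 0.50, 0.59 and 0.55. CHS7 was at -0.0039 in e15 and -0.055 for the mean, CHI1A at -0.011 in e19 and CHS7 and CHS8 summed at -0.036 in e15.

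Leaving out each library in turn, CHS7 ranged from -0.076 to 0.15 in e15, from -0.27 to 0.11 in e19, from -0.11 to 0.083 for the mean of events and from -0.061 to 0.33 between e15 and e19. CHS8 ranged from -0.17 to 0.043 in e15. CHI1A ranged from -0.035 to 0.071 in e19, from -0.038 to 0.015 for the mean and from -0.078 to 0.021 between the null sets. CHS7 and CHS8 summed ranged from -0.093 to 0.11 in e15, from -0.29 to 0.052 in e19, from -0.13 to 0.046 for the mean and from -0.025 to 0.33 between the events. The 3-row sum ranged from 0.11 to 0.26 in e15, from 0.18 to 0.41 in e19 and from -0.22 to 0.0030 between the events, and the share of CHS8 differed between them by -0.18 to 2.32 percentage points. Between the null sets, 1 to 2 members were called, with no share of all tested genes given for these fits. IFS2 ranged from 0.57 to 0.85 and was called without null 2 (adjusted p = 0.0286) or null 5 (adjusted p = 0.0260). IFS1 and IFS2 summed ranged from 0.48 to 0.68 there and lost the call without null 4 (adjusted p = 0.0608) or null 6 (adjusted p = 0.0678). The causes were not tested.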
